A study of Drosophila melanogaster with 4 samples.

Results

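Kc167 cells treated with ecdysone were compared with untreated control cells, both unirradiated, on 1 array each. The probe sets described were chosen by their signal on these arrays: a probe set was kept where its signal reached 500 units on at least 1 of the 2 arrays. This selected 1983 of 13966 probe sets (14.2%), which covered 1631 of 10844 genes with 1 symbol. Because the selection used the same signals as the ratios, those ratios are a description. Signal on both arrays reached 500 units for 923 members, on the ecdysone array alone for 507 and on the control array alone for 553. For members of the last 2 classes the selection fixed the direction of the ratio, in the gene lists too. Log2 ratios were taken with signals below 119 units, the median of all signals, raised to that floor. A fold or log2 ratio against a raised signal bounds the size of the difference from below and is given as "at least", and a median over several genes can include such bounds. A difference of 2-fold or more is the size used for counts, and no test applies with 1 array a group.

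Kc167 is a female Drosophila melanogaster line derived from embryos and kept in serum-free CCM3 medium at 25 °C. Ecdysone cells had received 10 µM of the ecdysone analog Muristerone A for 72 h, were mock-treated and had 90 min of rest before RNA extraction. Control cells were handled alike without hormone. An ecdysone plus gamma-irradiated sample, called combined here, had the same hormone treatment and then 280 Gy of gamma rays, and a gamma-irradiated sample had 280 Gy without hormone, both with 90 min of rest. The ratio of combined over irradiated, the irradiated pair, shares no array with the unirradiated pair and was not used in the selection. All 4 arrays hold 1 cell line and give no replicate, so their number limits the precision. In bulk samples, fewer cells of a type and less RNA per cell cannot be told apart.

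Ecdysteroids are the steroid hormones that time molting and metamorphosis in insects. They bind a nuclear receptor dimer of EcR and Ultraspiracle, which switches on early genes, many of them transcription factors, and these in turn control later, tissue-specific genes. Kc cells, which resemble hemocytes, have long served to study this response, in which the cells stop dividing and change shape.

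Median signals were 124.95 units on the ecdysone array, 121.4 on the control array, 113.7 on the combined array and 118.7 on the irradiated array, and each array had a trimmed mean of 200.0. Between 1430 and 1483 probe sets an array reached 500 units. All shared 1 chip lot and 1 scan day, but each had a washing module and a scan position of its own, so module, scan order and group cannot be told apart. Over the 7 bacterial spike-in probe sets at 500 units or more, the log2 ratio lay between -0.44 and 0.42 without irradiation and between -1.32 and 0.67 with it. The log2 ratio of 3′ to 5′ signal, a sign of RNA quality, was 0.27 in ecdysone and -0.29 in control for actin, 0.82 in ecdysone and 0.52 in control for GAPDH, and 0.19 in ecdysone and 0.01 in control for eIF-4a. In the irradiated pair it was -0.47 in combined and 0.93 in irradiated for actin, 1.81 in combined and 1.49 in irradiated for GAPDH, and -0.34 in combined and 0.58 in irradiated for eIF-4a. Their part in the ratios was not tested.

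With ecdysone, 352 members had a 2-fold or more higher signal (17.8% of members) and 362 a 2-fold or more lower signal (18.3%). The largest differences lay on the higher side. At 8-fold or more, 36 members were higher and 3 lower, and the 11 members past 16-fold were all higher. Over the members the log2 ratio had a median of -0.11, quartiles of -0.73 and 0.65 and extremes of -3.45 and 6.41. Counted by gene, 291 of 1631 were 2-fold or more higher (17.8%) and 294 lower (18%), with a median of -0.09. At the edge of the selection, the last members inside were Rtc1, with 44.6 units in ecdysone and 500 in control, and mdu, with 500.7 units in ecdysone and 180.6 in control. Just outside lay CG6878, with 259.5 units in ecdysone and 499.7 in control, and CAH1, with 499.7 in ecdysone and 322.5 in control.

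**Figure D1:**
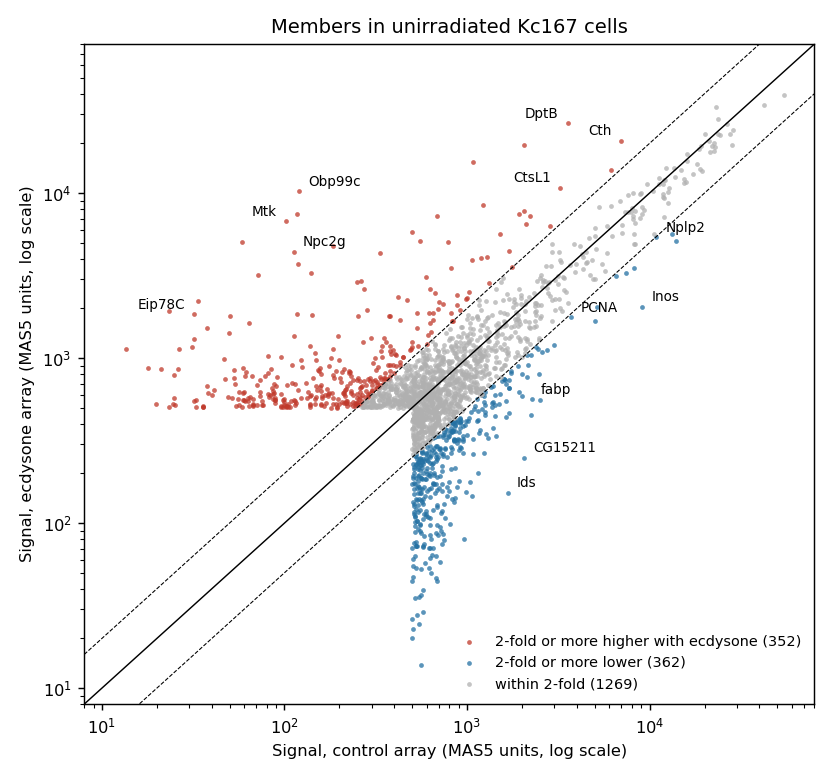
Signal of the 1983 members on the ecdysone array (vertical) against the control array (horizontal), in MAS5 units on log axes; the solid line marks equality and the dashed lines a 2-fold difference. Some of the 352 higher members have control signals far below 119 units, while the brightest members lie near the line of equality apart from genes such as DptB and Cth.

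The highest ratio belonged to Obp99c, which encodes a small secreted odorant-binding protein. It had 10246 units in ecdysone and 120.5 in control, an 85.0-fold difference, and 17755 in combined and 55.3 in irradiated. Both hormone-treated arrays were therefore bright and both hormone-free arrays close to or under the floor. Mtk, the antimicrobial peptide metchnikowin, followed with 6755 units in ecdysone and 102 in control, at least 56.8-fold higher. CG4250 had 5040 units in ecdysone and 58.6 in control (at least 42.4-fold), and 4476 in combined and 46.6 in irradiated. Npc2g, a member of the secreted NPC2 family of sterol-binding proteins, had 4419 units in ecdysone and 112.2 in control (at least 37.1-fold). MtnA, a metallothionein that binds heavy metals, had 3718 units in ecdysone and 119 in control (31.2-fold). All of these were also at least 2.95 higher on the log2 scale in combined than in irradiated.

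Enzymes formed a second group among the 30 genes with the highest ratios. The gene amd, related to DOPA decarboxylase and needed for cuticle, had 3292 units in ecdysone, 139 in control, 1645 in combined and 501 in irradiated. P5cr-2, a pyrroline-5-carboxylate reductase of proline synthesis, had 1926 units in ecdysone and 23.2 in control, but 683.3 in combined and 354 in irradiated, a log2 ratio of 0.95 there. The cytochrome P450 gene Cyp6a8 had 5789 units in ecdysone, 500.1 in control, 2909 in combined and 518.2 in irradiated. The arginine kinase gene Argk1, which buffers ATP, was at least 3.58 higher on the log2 scale without irradiation and 0.60 with it. A second, dimmer member probe set of Argk1 stood at least 2.37 higher without irradiation and at least 1.82 higher with it. The pantothenate kinase gene fbl stood at least 3.04 and 0.81 higher in the same order. For hll, an acyl-CoA synthetase gene, the signal was 4312 units in ecdysone, 335.4 in control, 1991 in combined and 75.6 in irradiated.

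Matrix and surface proteins were the third group. Col4a1, a collagen IV chain of basement membranes, had 1805 units in ecdysone and 50.5 in control (at least 15.2-fold), and 1892 in combined and 112.8 in irradiated. The matrix protein gene fat-spondin had 1851 units in ecdysone, 117.3 in control, 2457 in combined and 433.4 in irradiated. Nrt, the adhesion protein Neurotactin, had 1526 units in ecdysone, 37.5 in control, 677.5 in combined and 225.2 in irradiated. In each of these genes both hormone-treated arrays lay above both hormone-free arrays. Among the genes with other roles, the cytochrome b561 gene nemy had a log2 ratio of 3.70 in the unirradiated pair and of at least 4.16 in the irradiated pair. Dtg, a target of Dpp signalling, stood at least 3.25 and 2.92 higher.

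Of these 30 genes, 24 were 2-fold or more higher in combined than in irradiated and 29 lay above 0 there, with a median log2 ratio of 2.97. Over all 1631 genes, 15.9% were 2-fold or more higher and 12.1% lower in the irradiated pair. The exception below 0 was H15, a T-box transcription factor gene, with 1033 units in ecdysone and 81.6 in control, but 413.6 in combined and 464.1 in irradiated. For 19 of the 30, the control signal lay below the floor, so that their folds are lower bounds.

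Among the 307 members with several symbols or none, 50 were 2-fold or more higher and 63 lower, against 17.8% and 18.3% of all members. The highest ratio among them was that of probe set 143443_at, with 7454 units in ecdysone, 117.5 in control, 5205 in combined and 157 in irradiated. Probe set 143609_at had 15487 units in ecdysone, 1075 in control, 15497 in combined and 2360 in irradiated. Neither has a single gene symbol in the annotation used.

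Of the 25 genes with the lowest ratios, 5 were also 2-fold or more lower in the irradiated pair. Ids, a lysosomal sulfatase (iduronate 2-sulfatase), had 153.1 units in ecdysone and 1670.5 in control, 10.9-fold lower, and 510.4 in combined and 1743 in irradiated. CG15211 had 249.6 units in ecdysone, 2053 in control, 548.8 in combined and 1956 in irradiated. For dj-1beta, a gene of the oxidative stress response, the signal was 80.6 units in ecdysone, 966.4 in control, 416.4 in combined and 1372 in irradiated. In these 3 genes both hormone-treated arrays lay below both hormone-free arrays. The next genes differed: EMRE, a subunit of the mitochondrial calcium uniporter, had 145.2 units in ecdysone and 1065.5 in control, but 695.8 in combined and 534.7 in irradiated. Tom40, the import channel of the mitochondrial outer membrane, had 153.4 units in ecdysone, 991.4 in control, 395.1 in combined and 267 in irradiated.

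Nuclear and RNA-binding proteins were also among the 25. The gene vig, linked to RNA interference, had log2 ratios of -2.76 without irradiation and -0.46 with it, and rept, an ATPase of chromatin remodelling complexes, -2.64 and -0.46. Both genes lay below the floor in ecdysone, so their first ratio bounds the difference. NHP2, a component of ribonucleoproteins that modify ribosomal RNA, had 133.3 units in ecdysone and 852.1 in control, against 250.7 in combined and 68.1 in irradiated. Of the 25 genes, 5 were 2-fold or more lower and 3 were 2-fold or more higher in the irradiated pair, where their median was -0.25. In 15 of them the ecdysone signal lay below the floor, and in 20 the control signal lay below 1000 units. LysE is read by a probe set shared within the lysozyme family, so its value may include other family members.

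**Figure D2:**
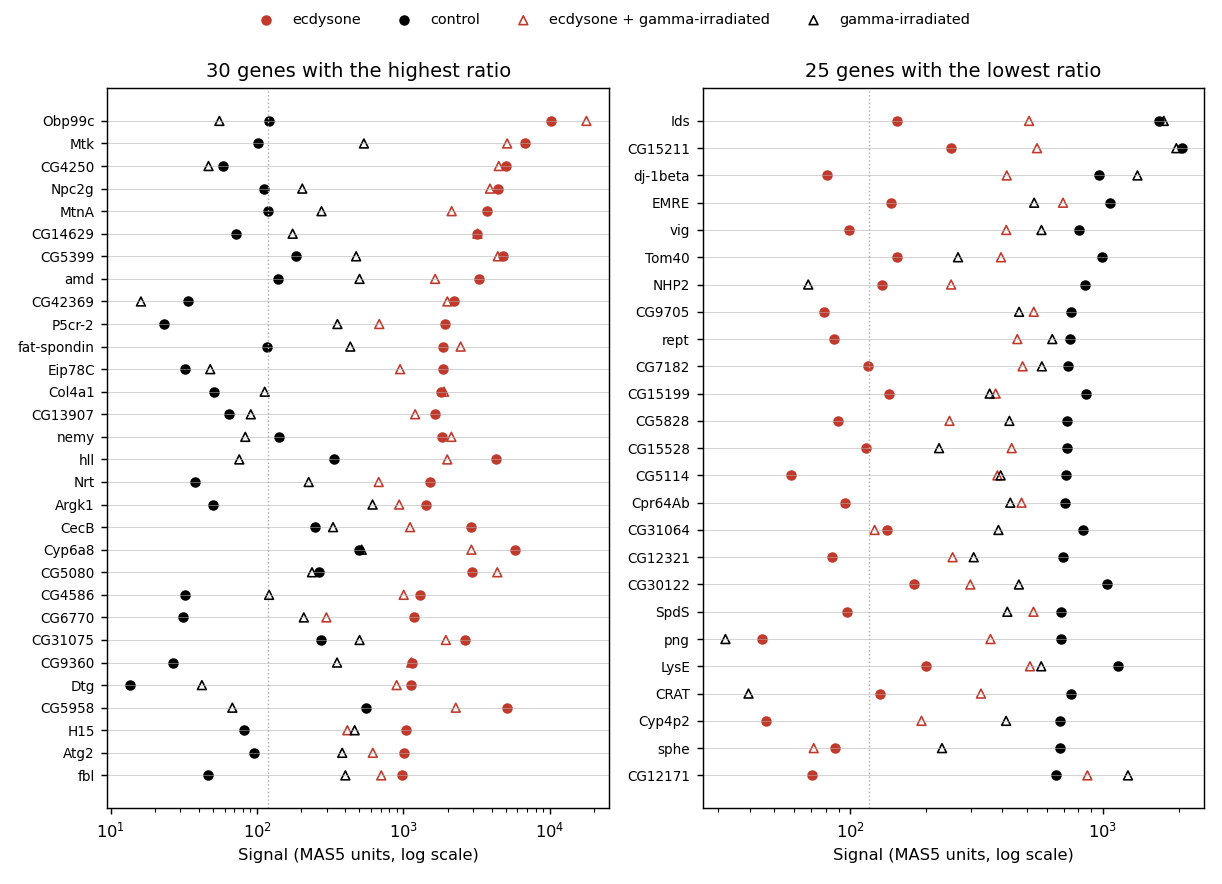
Signal in MAS5 units (log axis) on all 4 arrays for the 30 genes with the highest and the 25 with the lowest ratio of ecdysone over control; red marks hormone-treated and black hormone-free cells, circles unirradiated and triangles irradiated cells, and the dotted line the floor of 119 units. On the left the red triangle lies 2-fold or more above the black triangle in 24 of 30 genes, while on the right the triangles of most genes lie close together.

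Across all members, 306 were 2-fold or more higher (15.4%) and 240 lower (12.1%) in the irradiated pair, and Pearson's r between the log2 ratios of both pairs was 0.42 (Spearman's rho 0.33) over 1983 probe sets, which share their arrays and are no replicates. Of the 352 members 2-fold or more higher with ecdysone alone, 152 (43.2%) were also 2-fold or more higher in the irradiated pair, 32 were 2-fold or more lower there, and 238 lay above 0. Of the 362 lower members, 92 (25.4%) were also 2-fold or more lower, 34 were higher, and 121 lay above 0. The median log2 ratio of the higher members was 2.004 without irradiation and 0.69 with it, and that of the lower members -1.57 and -0.35. Past 8-fold, 16 of the 36 higher members repeated at 8-fold or more and none of the 3 lower members did.

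**Figure D3:**
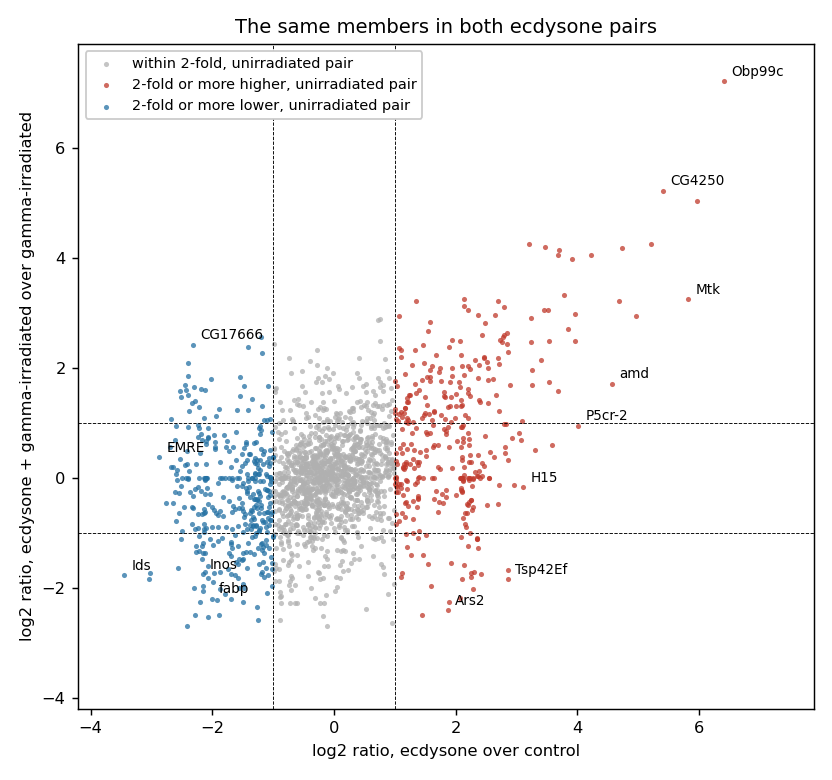
Log2 ratio of combined over irradiated (vertical) against log2 ratio of ecdysone over control (horizontal) for the 1983 members, with dashed lines at a 2-fold difference. Genes from Obp99c to amd stand high on both axes, Ids, Inos and fabp low on both, and Tsp42Ef, Ars2 and CG17666 lie on opposite sides.

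How often a difference came back in the irradiated pair varied with signal. Among members whose brighter signal was 500 to 1000 units, 33.7% of the higher and 22.5% of the lower members repeated at 2-fold, against 15.6% and 13.2% of all members of that class. At 1000 to 2000 units the shares were 50.8% of the higher and 31.0% of the lower members. From 2000 to 5000 units they were 79.3% and 46.7%, and at 5000 units or more 81.0% of 21 higher and 44.4% of 9 lower members. Members below 1000 units on both arrays were 69.0% of the higher and 77.3% of the lower members, against 68.9% of all members.

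**Figure D4:**
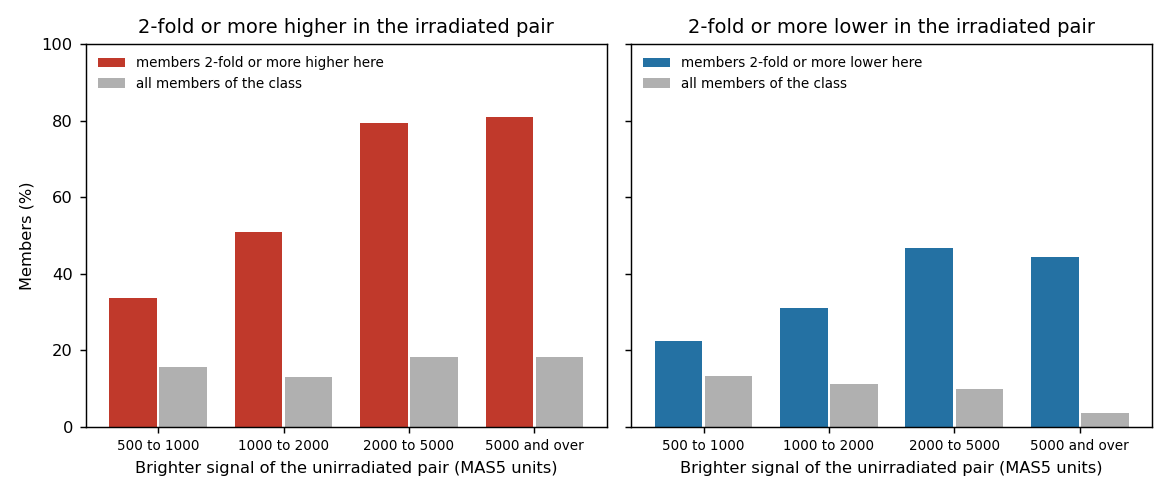
Share of members that were 2-fold or more higher (left) or lower (right) in the irradiated pair, by the brighter signal of the unirradiated pair; coloured bars show members with that difference in the unirradiated pair and grey bars all members of the class. The coloured bars reach 81.0% for bright higher members and 22.5% for dim lower ones.

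At 2000 units or more on either unirradiated array, 36 of 163 genes were 2-fold or more higher and 20 lower, against 17.8% and 18% of all genes. In the irradiated pair, 18.3% of all member probe sets of 2000 to 5000 units were 2-fold or more higher and 9.9% lower. At 5000 units or more these shares were 18.2% and 3.6%. All 36 higher genes lay above 0 in the irradiated pair, 29 of them 2-fold or more, and 18 of the 20 lower genes lay below 0, 10 of them 2-fold or more. The exceptions were RfC4 and eEF1gamma, an elongation factor subunit, which had 3508 units in ecdysone and 8245 in control but 6093 in combined and 5826 in irradiated. Several others were picked after their values were seen. The actin-binding peptide gene cib had 7759 units in ecdysone, 2058 in control, 9560 in combined and 2853 in irradiated. Mec2 had 2476 units in ecdysone, 664.9 in control, 3991 in combined and 768.9 in irradiated. On the lower side, Nepl4, of the neprilysin-like peptidase family, had 805.2 units in ecdysone, 2468 in control, 1608 in combined and 4621 in irradiated. The gene sty (sprouty), an inhibitor of receptor tyrosine kinase signalling, had 1046 units in ecdysone, 2240 in control, 609.5 in combined and 2605 in irradiated.

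Among genes with a single symbol, the 10 brightest on the ecdysone array were mostly ribosomal protein genes and differed little. Of these 10, 2 were 2-fold or more higher. Probe set 143096_f_at has no single symbol and is left out of the 10, although it was brighter than some of them. It had 19408 units in ecdysone, 2058 in control, 15619 in combined and 2799.5 in irradiated. DptB, the antibacterial peptide diptericin B, had 26438 units in ecdysone, 3563 in control, 25092 in combined and 7763 in irradiated. Cth, the enzyme cystathionine gamma-lyase, had 20769 units in ecdysone, 6978 in control, 19711 in combined and 5813 in irradiated.

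The transcription factors of the ecdysone cascade mostly lay below the 500-unit limit, and 4 of the 15 with a probe set were members. All 4 reached 500 units on the ecdysone array alone, so the selection fixed their direction there. In the irradiated pair, which it did not use, 3 of the 4 were 2-fold or more higher, against 15.9% of all genes. Eip78C, an early nuclear receptor gene, had 1848 units in ecdysone and 32 in control (at least 15.5-fold), and 947.8 in combined and 47.9 in irradiated. Hr4, a nuclear receptor of the early-late class, had 856.3 units in ecdysone, 21.1 in control, 646 in combined and 63.7 in irradiated. Eip93F, a regulator of larval tissue breakdown at metamorphosis, had 755.2 units in ecdysone, 53.2 in control, 338 in combined and 50.5 in irradiated. For the receptor gene EcR itself the signal was 535.6 units in ecdysone and 212.2 in control, but 286.6 in combined and 308.5 in irradiated. Among those below 500 units, the nuclear receptor gene Hr3 had 430.7 units in ecdysone, 20.4 in control, 245.8 in combined and 8.5 in irradiated. The gene usp, which encodes the partner of EcR, had 176.9 units in ecdysone, 186.9 in control, 182.4 in combined and 181.5 in irradiated, and the early gene br (Broad) 62.5, 244.8, 329.6 and 178.9 in that order of arrays.

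Of 17 other ecdysone-inducible genes on the array, 4 were members and Cth was the 1 gene that was 2-fold or more higher. ImpL2, a secreted inhibitor of insulin signalling, had 1139 units in ecdysone and 836.7 in control, and 2256 in combined and in irradiated alike. The tubulin gene betaTub60D, classically induced by ecdysone in Kc cells, had 3590 units in ecdysone and 2714 in control, but 2454 in combined and 2930 in irradiated. The small heat shock gene Hsp26 had 501 units in ecdysone and 746.8 in control, against 785.3 in combined and 311.6 in irradiated.

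Among antimicrobial peptide genes, 4 of 8 on the array were members. All 4 were 2-fold or more higher, against 17.8% of all genes, with a median log2 ratio of 3.21 without irradiation. In the irradiated pair 3 of the 4 were 2-fold or more higher, against 15.9% of all genes, with a median of 1.72. Besides Mtk and DptB, CecB, a cecropin, had 2900 units in ecdysone, 250.4 in control, 1109 in combined and 330.4 in irradiated. AttD, an attacin, had 5663 units in ecdysone and 1519 in control, and 3697 in combined and 2504 in irradiated, which is less than 2-fold. Each hormone-treated array lay above each hormone-free array in all 4 genes. All 4 were brighter in irradiated than in control cells, and their ratio was smaller in the irradiated pair. Mtk and CecB entered through the ecdysone array alone, so the selection fixed their direction, and DptB and AttD reached 500 units on both. The other 4 genes stayed below 500 units and differed in direction. Drs had 34.1 units in ecdysone and 165.6 in control, Listericin 35.5 and 154.6, and Def 151.4 and 188, all lower, but Anp 327.7 and 245.2. In the irradiated pair Drs had 226.4 units in combined and 176 in irradiated, and Listericin 374.6 and 236.2. Def had 106.9 and 130.1 there, and Anp 63.8 and 305.8. Of 22 recognition and signalling genes of the immune pathways, 3 were members. The Toll pathway adaptor gene tub and kinase gene pll had log2 ratios of 1.40 and 1.19 in the unirradiated pair, and 0.28 and 0.29 in the irradiated pair. Both reached 500 units on the ecdysone array alone, so the selection fixed their direction in the unirradiated pair. The thioester protein gene Tep4 stood at 0.54 and 1.38.

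Hemocyte genes differed in both directions. Of 18 on the array 4 were members. Of these, 1 was 2-fold or more higher and 2 lower, against 17.8% and 18% of all genes. Hml and Pvf2 reached 500 units on the control array alone, which fixed their direction in the unirradiated pair. In the irradiated pair 1 of the 4 was 2-fold or more higher and 3 lower, against 15.9% and 12.1% of all genes. Pxn, the matrix peroxidase peroxidasin, had 3089 units in ecdysone, 598.1 in control, 5558 in combined and 711 in irradiated. Hml (hemolectin), a clotting protein of plasmatocytes, had 284.2 units in ecdysone, 922.6 in control, 240.3 in combined and 1110 in irradiated. Nplp2 had 5384 units in ecdysone, 10888 in control, 5088 in combined and 14942 in irradiated, and the growth factor gene Pvf2 had log2 ratios of -0.88 and -1.07. In Hml, Nplp2 and Pvf2 both hormone-treated arrays lay below both hormone-free arrays. As a check of the label, the 10 hemocyte markers measured summed to 9962 units in ecdysone and 13409 in control, most of it Pxn and Nplp2. NimC1, crq and Sr-CI lay below the floor on both arrays, and the hemocyte factor srp had 209.7 units in ecdysone and 291.8 in control.

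Markers of other cell types were scanned in the same way. The neuron, muscle and germline markers held no member, and summed to 366, 227.5 and 311.9 units in ecdysone and to 656.6, 104.1 and 306.1 in control. Fat body markers summed to 1891 units in ecdysone and 945.2 in control, crystal cell and lamellocyte markers to 2076 and 1072, and epidermis markers to 1387 and 522.9. In the irradiated pair the crystal cell and lamellocyte sum was 619.3 units in combined and 844.1 in irradiated, the neuron sum 995.5 and 487.9, the muscle sum 225.4 and 403.1, and the germline sum 221.8 and 670.3. Fat body markers summed there to 1122 and 661.4 and epidermis markers to 1249 and 985.2. The part of other cell types in the gene groups described was not tested. Single members of these lists were 2-fold or more higher with ecdysone: the yolk protein gene Yp2 (507.9 units in ecdysone and 23.4 in control), the chitinase gene Cht2 (1007 and 180.4) and the prophenoloxidase gene PPO1 (845.9 and 319.2). Each of them reached 500 units on the ecdysone array alone, so the selection fixed its direction there. In the irradiated pair, Yp2 had 793.9 units in combined and 297.8 in irradiated, Cht2 1105 and 652, and PPO1 221.2 and 432.5. Of the wider lists, fat body held 2 members with Lsp2 at a log2 ratio of 0.14, and germline 1, tud, at 0.41. No catecholamine or acetylcholine enzyme of the list reached 500 units on these arrays.

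Basement membrane genes gave 7 members of 17 on the array, with 3 of them 2-fold or more higher (Col4a1, Pxn and Plod, the lysyl hydroxylase that modifies collagen) and a median of 0.26. The 3 are 42.9% of the members, against 17.8% of all genes, and Col4a1 reached 500 units on the ecdysone array alone. Plod had 1680 units in ecdysone and 827.7 in control, but 1326 in combined and 1301 in irradiated. SPARC, a collagen-binding protein, had a log2 ratio of -0.33, and the laminin genes LanB2 and LanA 0.26 and 0.04. Below 500 units, vkg, the second collagen IV chain, had 468.3 units in ecdysone, 49.7 in control, 779.6 in combined and 47.7 in irradiated. The perlecan gene trol had 494.2 units in ecdysone, 97.2 in control, 347.5 in combined and 16.8 in irradiated. Of 15 integrins and adhesion receptors, Nrt was the single member. Among 8 actin, tubulin and regulator members 1 was 2-fold or more higher (12.5%, against 17.8% of all genes). It was betaTub97EF, with 2626 units in ecdysone, 628.4 in control, 2209 in combined and 656 in irradiated. The other 7 lay within 2-fold, with a list median of 0.01, and the profilin gene chic stood at -0.63.

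Of 9 glycolysis genes on the array 7 were members, and 4 of these were 2-fold or more higher in the unirradiated pair (57.1%, against 17.8% of all genes). The median log2 ratio was 1.37 without irradiation and 0.92 with it. Pfk and Pgi reached 500 units on the ecdysone array alone, so the selection fixed their direction there. In the irradiated pair 3 of the 7 were 2-fold or more higher, against 15.9% of all genes. The aldolase gene Ald1 had 6470 units in ecdysone, 2110 in control, 8712 in combined and 2121 in irradiated. Gapdh1, glyceraldehyde-3-phosphate dehydrogenase, had 3930 units in ecdysone, 1070.5 in control, 3895 in combined and 2053 in irradiated. Pgk, phosphoglycerate kinase, had 1531 units in ecdysone, 532.6 in control, 1497 in combined and 597.7 in irradiated. These 3 enzymes had both hormone-treated arrays above both hormone-free arrays. The phosphofructokinase gene Pfk stood at 1.37 and 0.30, and Pgi, Pglym78 and Eno lay within 2-fold of control at 0.76, 0.72 and 0.45. In the irradiated pair Pgi and Eno were level, at 0.01 and 0.02, and Pglym78 stood at 2.88.

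Lipid genes were split, with 3 of 9 members 2-fold or more higher and 3 lower, against 17.8% and 18% of all genes. The 3 higher, hll, mdy and AcCoAS, reached 500 units on the ecdysone array alone, and Mtp on the control array alone. The selection thus fixed their direction there. In the irradiated pair 3 of the 9 were 2-fold or more higher and 2 lower, against 15.9% and 12.1% of all genes. The acyltransferase gene mdy, which makes triglyceride, had 865.2 units in ecdysone, 157 in control, 542.6 in combined and 42.7 in irradiated. AcCoAS, acetyl-CoA synthetase, had 970 units in ecdysone and 197.9 in control, but 452.7 in combined and 455.8 in irradiated. Inos, the enzyme that makes inositol phosphate, had 2044 units in ecdysone, 9128 in control, 2768 in combined and 9296 in irradiated. The fatty acid binding protein gene fabp had 561.8 units in ecdysone, 2259 in control, 534.8 in combined and 2446 in irradiated. Inos and fabp were thus low on both hormone-treated arrays and high on both hormone-free arrays. Mtp, which loads lipid onto lipoproteins, had 162 units in ecdysone and 563.2 in control, and lay below the floor on both irradiated arrays. Within the NPC2 family 4 of 8 were members and the paralogs differed in direction. Npc2g reached 500 units on the ecdysone array alone, and Npc2h and Npc2c on the control array alone, which fixed their direction in the unirradiated pair. Npc2a had 4110 units in ecdysone, 1287 in control, 4878 in combined and 1029 in irradiated. Npc2h had 149.2 units in ecdysone, 515.1 in control, 104.7 in combined and 512.4 in irradiated, and Npc2c stood at -0.79. Npc2g and Npc2h are neighbours in the Release 6 plus ISO1 MT assembly, with log2 ratios of at least 5.21 and of -1.79 without irradiation. With irradiation Npc2g stood at 4.26, and Npc2h at -2.11 with combined below the floor.

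Lysosomal genes gave 14 members of 21, with 12 above 0, 5 of them 2-fold or more higher (35.7%, against 17.8% of all genes), 1 lower (Ids) and a median of 0.82. Of the 5, spin and CtsF reached 500 units on the ecdysone array alone, and Ids did so on the control array alone. In the irradiated pair 5 of the 14 were 2-fold or more higher, against 15.9% of all genes. The cathepsin L gene CtsL1 had 10787 units in ecdysone, 3239 in control, 9902 in combined and 2593 in irradiated. Sap-r, a precursor of saposins that help to break down sphingolipids, had 2198 units in ecdysone, 700.8 in control, 1948 in combined and 841.8 in irradiated. The lysosomal transporter gene spin and the cathepsin F gene CtsF had log2 ratios of 2.01 and 1.53 without irradiation, and of at least 1.52 and of 1.84 with it. In these 4 genes the hormone-treated arrays stood higher in both pairs. Of 4 autophagy members, Atg2 was 2-fold or more higher (1008 units in ecdysone and 95.6 in control), but 617.4 in combined and 381.5 in irradiated, and Atg8a stood at 0.33. Atg2 reached 500 units on the ecdysone array alone. The single cell death member, eIF3m, had a log2 ratio of -0.15.

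Antioxidant and detoxification enzymes had 7 of 13 members 2-fold or more higher (53.8%, against 17.8% of all genes) and none 2-fold or more lower. Their median was 1.29, which became 0.63 with a limit of 250 units. MtnA, GstE3, Cat and GstE6 reached 500 units on the ecdysone array alone, so the selection fixed their direction there. In the irradiated pair, which it did not use, 4 of the 13 were 2-fold or more higher, against 15.9% of all genes. The catalase gene Cat had 1947 units in ecdysone, 283.7 in control, 1771 in combined and 298 in irradiated. The neighbouring ferritin chain genes Fer1HCH and Fer2LCH, which store iron, had log2 ratios of 1.76 and 1.40 without irradiation and 1.77 and 1.60 with it. Together with MtnA these are the 4 that repeated at 2-fold. The glutathione transferase genes GstE3, GstE1 and GstE6 stood at 2.80 or more, 1.38 and 1.29 without irradiation and at 0.98, 0.24 and 0.35 with it. Of 80 cytochrome P450 genes 5 were members, 3 of them 2-fold or more higher and 1 lower, against 17.8% and 18% of all genes. Cyp6a2 and Cyp4e2 reached 500 units on the ecdysone array alone and Cyp4p2 on the control array alone, which fixed their direction there. In the irradiated pair 2 of the 5 were 2-fold or more higher and 1 lower, against 15.9% and 12.1% of all genes. Cyp6a2 had 512.5 units in ecdysone and 242.7 in control, but 52.4 in combined and 205.1 in irradiated. Besides Cyp6a8, Cyp4e2 had 751.7 units in ecdysone, 373.8 in control, 2499 in combined and 734.7 in irradiated, and Cyp4p2 had 46.3, 677.6, 191.3 and 414 in that order. Of 35 odorant-binding proteins 3 were members, and Obp44a had 525.6 units in ecdysone, 137.6 in control, 527.2 in combined and 189.3 in irradiated. Obp99c and Obp44a reached 500 units on the ecdysone array alone. Obp99a had a log2 ratio of 0.01 without irradiation and 1.40 with it.

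Of 9 DNA replication members, 8 were below 0 with ecdysone (53.0% of all genes) and 5 were 2-fold or more lower (18% of all genes). Over the 9 the median was -1.07 without irradiation and -0.57 with it. Mcm3, Mcm2, PolA1 and Caf1-180 reached 500 units on the control array alone, so the selection fixed their direction there. In the irradiated pair, which it did not use, 2 of the 9 were 2-fold or more lower, against 12.1% of all genes. PCNA, the sliding clamp of the polymerases, had 1771 units in ecdysone, 3727 in control, 1809 in combined and 4397 in irradiated. The helicase subunit gene Mcm2 had 348 units in ecdysone, 756.4 in control, 259.4 in combined and 605.1 in irradiated. In PCNA and Mcm2 both hormone-treated arrays lay below both hormone-free arrays. PolA1, the catalytic subunit of DNA polymerase alpha, had 368.7 units in ecdysone and 1183 in control, and 85.1 in combined and 227.3 in irradiated. RfC4, a clamp loader subunit, had 1092 units in ecdysone and 2589 in control, but 3962 in combined and 3489 in irradiated, and Caf1-180, a histone chaperone subunit, 97 and 626.1, but 226.3 and 30.7. Of 11 G2 and mitosis members 2 were 2-fold or more lower (18.2%, close to the 18% of all genes), with a median of -0.34. They were feo, a spindle midzone protein, at -1.21 and -1.19 in the unirradiated and irradiated pairs, and Incenp, of the chromosomal passenger complex, at -2.16 (ecdysone below the floor) and 0.70. Both reached 500 units on the control array alone, which fixed their direction in the unirradiated pair. The cyclin gene CycB had 948.5 units in ecdysone, 1440 in control, 354 in combined and 930.5 in irradiated.

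Cytosolic ribosomal protein genes differed little. All 26 cytosolic ribosomal protein members lay within 2-fold in both pairs, with log2 ratios between -0.75 and 0.63 and a median of -0.05 in the unirradiated pair. Below 0 lay 53.0% of all genes. Of 44 respiratory chain and ATP synthase members 33 were below 0 (75%), with a median of -0.38. Of the 44, 2 were 2-fold or more higher (4.5%, against 17.8% of all genes) and 3 lower (6.8%, against 18%). The 2 higher reached 500 units on the ecdysone array alone and the 3 lower on the control array alone. RFeSP, the iron-sulfur protein of complex III, had 121.4 units in ecdysone, 525.1 in control, 226 in combined and 584.9 in irradiated. Of 20 mitochondrial ribosomal protein members 17 were below 0 (85.0%), with a median of -0.61. Of the 20, 1 was 2-fold or more higher (5%, against 17.8% of all genes) and 5 lower (25%, against 18%). Most of those below 0 reached 500 units on the control array alone, so the selection fixed their direction. These include all of the 5 lower except mRpL23. In the irradiated pair 1 of the 20 was 2-fold or more higher and 2 lower, against 15.9% and 12.1% of all genes. Of 22 proteasome members 19 were below 0 (86.4%), with a median of -0.61, and 4 were 2-fold or more lower (18.2%, close to the 18% of all genes). Of these 4, Rpn8 and Rpn13 reached 500 units on the control array alone. Prosbeta4, a subunit of the catalytic core, had 1688 units in ecdysone, 5017 in control, 2565 in combined and 6071 in irradiated. Over the 1631 genes the median was -0.09. Of 9 chaperone members 1 was 2-fold or more higher, l(2)efl (1.65, but -0.38 in the irradiated pair), and 1 lower, CCT2, a subunit of the cytosolic chaperonin (-1.36 and -0.76). Each is 11.1% of the list, against 17.8% higher and 18% lower of all genes. Among 2 insulin and TOR pathway members, the adaptor gene chico stood at 2.10 and -0.24. Both l(2)efl and chico reached 500 units on the ecdysone array alone. The juvenile hormone epoxide hydrolase gene Jheh2 stood at -0.15.

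**Figure D5:**
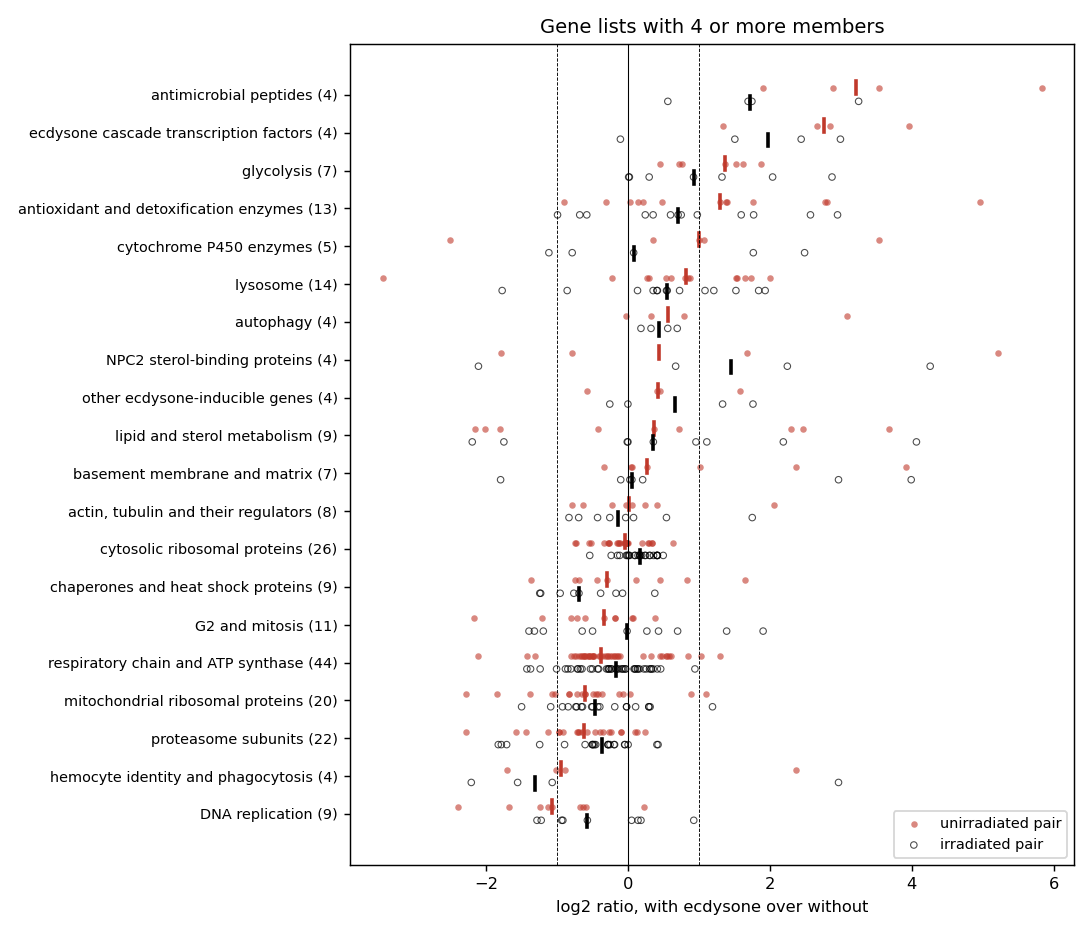
Log2 ratio with ecdysone over without for the members of the 20 gene lists with 4 or more members, red points for the unirradiated and open black points for the irradiated pair; short bars mark medians and dashed lines a 2-fold difference, with the number of members in parentheses. Antimicrobial peptides have a median of 3.21, DNA replication genes of -1.07 and cytosolic ribosomal proteins of -0.05; members that reached 500 units on 1 array alone had their direction fixed by the selection.

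Genes read by more than 1 member probe set gave a check within the arrays. In 41 such genes the log2 ratios of the brightest and second probe set differed by a median of 0.60. Where the brightest was 2-fold or more higher (4 genes), the second was above 0 in all 4 and 2-fold or more higher in 3. Where it was lower (4 genes), the second was below 0 in 3 and 2-fold or more lower in 1. In cwo, a clock gene repressor, the probe sets opposed each other, at -1.31 and 2.20.

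Some members lie next to each other in the annotation. Of 262 adjacent pairs of members, 8 were both 2-fold or more higher, 13 both lower and 14 opposite. Taken singly, 17.8% of all genes were 2-fold or more higher and 18% lower. Whether neighbours share a direction more often than other pairs of genes was not tested, so these counts are no result about neighbours. The examples here were chosen after their values were seen, and all are pairs or rows with the same direction. NimC3, a phagocytosis receptor gene, lies next to hll, and had 749.7 units in ecdysone, 47.2 in control, 931.9 in combined and 53.1 in irradiated. Sox14, a transcription factor gene of the ecdysone response, had 522.8 units in ecdysone, 70.3 in control, 1133 in combined and 113.4 in irradiated. Its neighbour Phm had log2 ratios of 1.51 without irradiation and 0.84 with it. On the lower side Ids, sty and eIF5B lie in a row, with log2 ratios of -3.45, -1.10 and -1.28 without irradiation and -1.77, -2.10 and -0.86 with it.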

How the data were processed

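Biotin-labelled targets from total RNA of 4 Kc167 samples were put on 1 Affymetrix DrosGenome1 array each. The deposited values are signal intensities, scaled by the authors to a trimmed mean of 200.0, computed with MAS5 per the submitters' processing notes (version not given in the sources used here). The deposited records of washing and scanning, a further kind of file, gave module and scan order. Of 14010 probe sets 44 controls were left out. RefSeq (Release 6 plus ISO1 MT) gave 12394 probe sets a current symbol, 49 kept the platform's, 327 had several and 1196 none. A gene with several probe sets was read by the one with the highest mean signal.

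Members, ratios and the floor follow the report. Genes named are the 30 highest and 25 lowest ratios, the 5 largest gaps between pairs in each direction, the 10 brightest, and members of 33 gene lists, of which 7 names had no match. The members and lists were chosen with earlier results of these data known. The counting was tested on simulated data. Alternatives were other floors, scalings, signal minimums, fold sizes and one probe set a gene. Python 3.11.15, numpy 2.4.6, pandas 2.3.3, scipy 1.17.1, statsmodels 0.14.6 and matplotlib 3.10.9 were used.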

Additional observations from a re-analysis of the deposited data

Results flagged for a closer look

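In 13 of the named genes the ecdysone ratio was 2-fold or more in each pair but in opposite directions. All but CRAT, ND-ASHI and NHP2 were named because their gap between the pairs was among the largest, so their number is no result. These differences between pairs were not tested, since each rests on 4 single arrays. Apart from Tsp42Ef and ND-ASHI, each gene had at least 1 signal below the floor, so its ratios include a bound. Higher with ecdysone in the unirradiated pair and lower in the irradiated pair were the tetraspanin gene Tsp42Ef (log2 ratios 2.87 and -1.84), beat-IIb (2.42 and -1.75), the diacylglycerol kinase gene rdgA (2.28 and -2.02), the chitin deacetylase gene Cda4 (2.08 and -2.18), Ars2 (1.87 and -2.41) and the complex I subunit gene ND-ASHI (1.30 and -1.01). For Tsp42Ef the signals were 1075 units in ecdysone, 147.4 in control, 156.9 in combined and 561.5 in irradiated.

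Lower in the unirradiated and higher in the irradiated pair were NHP2 (-2.68 and 1.08), the kinase gene png (-2.52 and 1.59), the carnitine acetyltransferase gene CRAT (-2.52 and 1.47), the mitochondrial import gene Tim17b2 (-2.45 and 1.69), CG13046 (-2.39 and 1.86), l(1)G0469 (-2.39 and 2.09) and CG17666 (-2.32 and 2.43). For CG17666 the signals were 114.2 units in ecdysone, 594.2 in control, 735.3 in combined and 136.5 in irradiated.

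The GAPDH control probe sets of the array, which the comparisons leave out, were brighter with ecdysone. The 3′ set had 8970 units in ecdysone and 963.2 in control (log2 ratio 3.22), the 5′ set 5084 and 671.9 (2.92) and the middle set 9724 and 2076 (2.23).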

How the results depend on the processing

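With 1 array a group, no array could be left out. No paired analysis was possible because each group holds 1 array, which leaves a single pair in each comparison. Counts of members 2-fold or more higher, lower, and higher or lower in both pairs were 352, 362, 152 and 92. With members at 250 units or more they were 1363, 1371, 311 and 228, and at 1000 units or more 109, 82, 70 and 29. With 1.5-fold as the size they were 530, 591, 244 and 227, with 3-fold 226, 177, 76 and 27, and with 4-fold 177, 119, 51 and 6; a looser minimum or size takes in more members by construction. Under other floors, no floor, median scaling, quantile normalization, loess and counting genes, the 4 counts stayed within 1.5 times. Loess turned the split of higher against lower to 371 and 331, and median scaling to 336 and 381. The odorant-binding list's median was 1.93 and became -0.00731 with members at 250 units or more, which adds dimmer genes. Autophagy went to -0.03 there (0.56), and with members at 1000 units or more hemocyte identity went to 0.68 (-0.95) and insulin and TOR to -0.87 (0.62). The cascade factors' median, 2.76, became 4.09 with the lower floor and 4.59 with none. Of 236 values of 30 list medians under the alternatives, 216 stayed within 1.5-fold. The 130 named genes past 2-fold kept their sign under the floors, scalings and probe set means, and at least 127 stayed past 2-fold. Signals near the floor bound folds, and dim members repeat least.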

Other observations

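Some genes below 500 units on both unirradiated arrays, and so outside the members, had both hormone-treated arrays above both hormone-free arrays; they were chosen after their values were seen. Besides Hr3, vkg and trol, these include the immune transcription factor gene Rel, with 361.9 units in ecdysone, 13.8 in control, 329.6 in combined and 218.4 in irradiated. The phagocytosis receptor gene drpr had 420.6 units in ecdysone, 290.2 in control, 590.6 in combined and 189.3 in irradiated.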
